A study of Homo sapiens with 17 samples.

Results

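Of the 17 RNA libraries in the study, 4 carried a plasmid label that begins with a number and a hyphen, namely 20-ARSF, 21-CTPS2, 22-LAPTM4B and 23-GOLGA8N. They were set against the 13 libraries whose labels have no number in front: Neg, TTR, TRPC5OS, RFP, LAPTM4B 1, LAPTM4B 2, GFP, E7, ADORA2A, UBE2V1, COL6A6, GOLGA8N 1 and GOLGA8N 2. Membership was read from the label alone, and no measured value entered it. All 17 libraries came from K562, a human chronic myeloid leukaemia line with erythroid features, which was electroporated with CRISPR plasmids, treated with an antisense oligonucleotide (ASO) and processed on day 6. Total RNA was copied with oligo-dT primers carrying 12 bp molecular identifiers into 3′ tag libraries. The identity of the oligonucleotide and the guides is not in the labels, nor is the meaning of the numbers 20 to 23, of Neg or of E7. Each prefixed label is 1 library, and the 13 unprefixed libraries span 11 labels, so the comparison is between 2 classes of label and not between 2 treatments. Only LAPTM4B and GOLGA8N were named by both kinds of label. The labels do not say that libraries were separate cultures, so every p-value here measures the spread between libraries, which may be technical.

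The genes that separated the classes belong to several well studied systems. Metallothioneins are small cysteine-rich proteins that bind zinc and copper, and their genes are switched on by the zinc-sensing factor MTF1, which binds metal response elements in their promoters. JUN is an immediate early gene whose protein is part of the AP-1 transcription factor. Genes of cholesterol synthesis are driven by SREBF2 when cell sterol is low, and many glycolytic genes are driven by hypoxia-inducible factors. K562 cells make embryonic and fetal globins, take up much iron and store it in ferritin.

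Depth was similar in both classes apart from 1 library. The 4 prefixed libraries held 2252097 to 4236396 estimated reads, and 12 of the unprefixed libraries held 2379248 or more, whereas GFP held 569057. Erythroid markers of K562 were present in all 17, with 5744 to 8547 CPM (counts scaled to the same total of reads in genes) summed over 10 markers in the prefixed libraries and 4847 to 9362 in the unprefixed ones. Every one of 136 pairs of libraries differed by more than sampling noise. At 7.46, the pair 22-LAPTM4B and 23-GOLGA8N had the smallest chi-square per degree of freedom. Spearman rank correlation over 7310 genes ranked the pairs otherwise. By that measure 22-LAPTM4B stood at 0.912 with the unprefixed E7, whereas 23-GOLGA8N reached at most 0.889 with any other prefixed library. Which pair was closest thus depended on the measure.

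The metallothionein genes lie in a cluster on chromosome 16. Of the gene lists used, theirs had the largest median log2 fold between the classes (2.30), so stretches of their promoters are shown first. Promoters of 3 of the 8 listed metallothionein genes were in the RefSeq table used (GRCh38.p14), and the 250 bases before each start were searched on both strands for the core of the metal response element, TGCACNC or TGCGCNC. The search found 7 matches for MT2A, 4 for MT1X and 8 for MT1H, with no match overlapping another. A match describes the letters and is not a measured binding site. Of all 35116 promoter windows of that length, 24.8% held at least 1 match and 0.37% held 4 or more. For each gene the 30 bases with the most matches are printed 5′ to 3′ with the matches in capitals. They lie at chr16:56608426-56608455 for MT2A, chr16:56682405-56682434 for MT1X and chr16:56669667-56669696 for MT1H, all on the plus strand, between 158 and 36 bases before the RefSeq start. The GENCODE gene spans used for the counts begin upstream of that start for MT2A and MT1X, so the MT2A stretch lies inside its span, the MT1X stretch crosses the beginning of its span, and the MT1H stretch lies before its span.
MT2A: ccgggTGCGCCCggcccagTGCGCGCggcc
MT1X: aggcggggcctcTGCGCCCggccctcttcc
MT1H: cttTGCGCCCgacccgtctgcTGCGCACag

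Across 12319 tested genes, 35 (0.284%) differed between prefixed and unprefixed labels at an adjusted p under 0.05 (edgeR quasi-likelihood test, Benjamini-Hochberg adjustment). Of these, 29 (0.235%) were higher and 6 (0.0487%) were lower in the prefixed libraries, and 1153 genes (9.36%) had an unadjusted p under 0.05. In 14 of the 29 higher genes all 4 prefixed libraries lay above all 13 others, and in 4 of the 6 lower genes all 4 lay below. Over all tested genes, 25 (0.203%) were above and 19 (0.154%) were below in that way, 44 (0.357%) in all. The median log2 fold over all genes was -0.02, and 47.8% of genes had a fold above 0. These shares over all tested genes are the background for every list count of this comparison below. The lists were chosen with earlier results of these data known. The calls rested on several of the 4 libraries: without 22-LAPTM4B 2 genes were called, without 23-GOLGA8N 7, without 21-CTPS2 11 and without 20-ARSF 29. SLC25A37 and IFI30 were called whichever of the 17 libraries was left out.

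**Figure D1:**
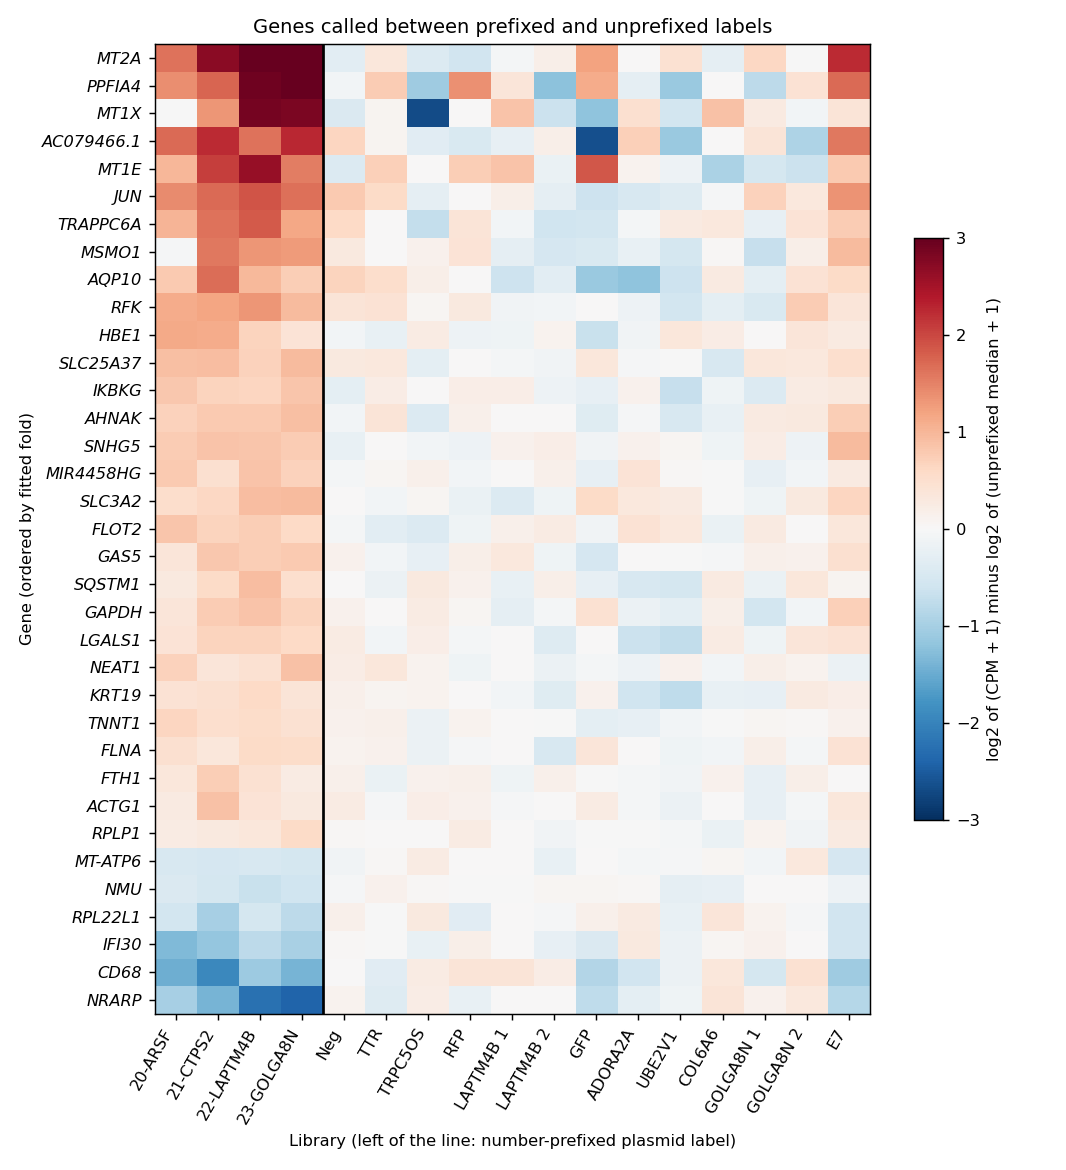
The 35 called genes (lines of the plot, ordered by fitted fold) in the 17 libraries (columns), coloured by log2 of CPM + 1 minus log2 of the unprefixed median + 1, with colours ending at 3. The 4 prefixed libraries left of the black line share their direction in nearly every gene, 20-ARSF is paler than the other 3 for MT1X and MSMO1, and E7, at the far right, is shifted the same way in many genes.

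Transcripts of 3 metallothionein genes were higher in the prefixed libraries, with the top values in 22-LAPTM4B. MT2A (chr16:56608199-56609497), the most abundant member, stood at 179 CPM in 20-ARSF, 374 in 21-CTPS2, 1283 in 22-LAPTM4B and 755 in 23-GOLGA8N. In the unprefixed libraries it ranged from 37.6 to 271 CPM with a median of 56.8, and the highest was E7. So 3 prefixed libraries exceeded every unprefixed library, while 20-ARSF exceeded all but E7. The fitted log2 fold of MT2A was 3.05 (SE 0.478, edgeR adjusted p = 0.0177).

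MT1X, a further zinc-binding family member, was at 5.41 CPM in 20-ARSF, 15.1 in 21-CTPS2, 46.6 in 22-LAPTM4B and 44.6 in 23-GOLGA8N. Its unprefixed range was 0 to 10.9 CPM with a median of 5.47. The value in 20-ARSF was thus no higher than the unprefixed median, and the other 3 prefixed libraries lay above the whole unprefixed range (log2 fold 2.30, SE 0.47, edgeR adjusted p = 0.0191). MT1E was called as well, at 10.5, 23.2, 34.2 and 15.6 CPM in the same order of libraries against 2.01 to 20.0 (median 4.78) in the others (log2 fold 1.79, edgeR adjusted p = 0.0493).

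The metallothionein list holds 8 metallothioneins and 2 other genes, MTF1 and SLC30A1. Of these 10 genes, 7 were tested, MTF1 and SLC30A1 among them, and 3 were called higher. MT1G, at 9.87, 44.9, 95.3 and 56.4 CPM against an unprefixed median of 1.15 and maximum of 18.5, did not pass (log2 fold 3.95, edgeR adjusted p = 0.071). MT1F did not pass either (log2 fold 2.36, edgeR adjusted p = 0.127). MTF1, the factor that senses zinc for this family, had 2.18 to 10.3 CPM in the prefixed libraries and 0.575 to 11.5 in the others, with a log2 fold of -0.09. The median log2 fold of the 7 tested genes of the list was 2.30, against -0.02 over all genes. Family members are near-identical in sequence and the quantifier divides reads between them, so single-member values are less certain than the summed list. That sum, which takes in MTF1 and SLC30A1, was 239, 498, 1518 and 913 CPM in 20-ARSF, 21-CTPS2, 22-LAPTM4B and 23-GOLGA8N. In the unprefixed libraries it was 65.6 to 332 CPM (median 90.9). Without 22-LAPTM4B the MT2A log2 fold was 2.45 and its call was lost (edgeR adjusted p = 0.145), and without 23-GOLGA8N it was also lost (adjusted p = 0.088).

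**Figure D2:**
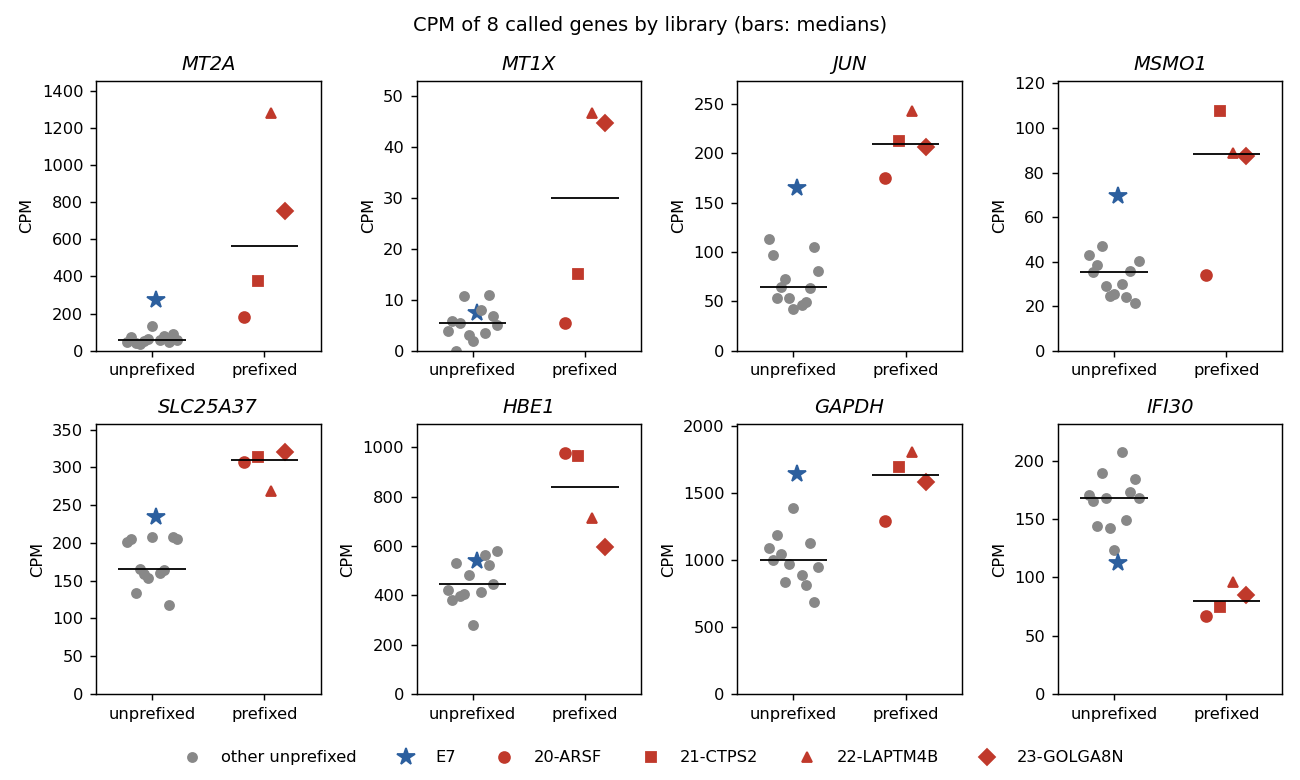
CPM of 8 called genes in each library on linear axes from 0, with unprefixed libraries in grey, E7 as a blue star, the 4 prefixed libraries in red by symbol and medians as bars. In MT2A, MT1X and MSMO1 the library 20-ARSF lies near the unprefixed values, whereas in SLC25A37, HBE1, JUN and IFI30 the 4 red points do not overlap the others.

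JUN (chr1:58780788-58784327) stood at 175 CPM in 20-ARSF, 212 in 21-CTPS2, 243 in 22-LAPTM4B and 207 in 23-GOLGA8N. The unprefixed libraries ranged from 41.8 to 165 CPM, with a median of 64.6 and E7 the highest. All 4 prefixed libraries were above all 13 others, with means of 209 ± 27.8 CPM (SD, n = 4) and 77.3 ± 35 CPM (SD, n = 13). The log2 fold was 1.44 (SE 0.259, edgeR adjusted p = 0.0191), and the call was lost without 22-LAPTM4B, 21-CTPS2 or 23-GOLGA8N (adjusted p 0.0826 to 0.145).

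JUN was the only call among 29 tested AP-1 and immediate early genes. JUND, a second AP-1 subunit, had a log2 fold of 0.51 and did not pass (edgeR adjusted p = 0.0563). MCL1, a survival factor related to BCL2, did not pass (edgeR adjusted p = 0.063), although its 392.2 to 419 CPM in the prefixed libraries lay just above the unprefixed maximum of 391. Of the 29 genes, 20 had a fold above 0, beside 47.8% of all tested genes. At an unadjusted p under 0.05, 7 were higher and none lower, beside 9.36% of all in either direction. The list median was 0.29.

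In sterol and fatty acid synthesis 1 gene was called. MSMO1, an enzyme that removes methyl groups from sterol precursors, was at 34.1 CPM in 20-ARSF, 108 in 21-CTPS2, 89.0 in 22-LAPTM4B and 87.3 in 23-GOLGA8N. Its unprefixed values ran from 21.5 to 69.3 CPM with a median of 35.1. The library 20-ARSF was thus at the unprefixed median and the other 3 above every unprefixed library (log2 fold 1.16, SE 0.234, edgeR adjusted p = 0.0191). HMGCS1, which makes the precursor of mevalonate, was likewise lowest in 20-ARSF, with 197, 399, 408 and 391.8 CPM against 128 to 305 (median 187), and did not pass (edgeR adjusted p = 0.0876). MSMO1 was the only call among 35 tested genes of the list, beside 0.235% of all tested genes called higher. Of the 35, 29 had a fold above 0, beside 47.8% of all. At an unadjusted p under 0.05, 15 were higher and 1 was lower, beside 9.36% of all in either direction. The median log2 fold of the list was 0.41. Taken library by library as a median log2 ratio to the unprefixed median, the list stood at -0.13 in 20-ARSF, 0.54 in 21-CTPS2, 0.37 in 22-LAPTM4B and 0.46 in 23-GOLGA8N. It stood at 0.49 in E7, above 3 of the 4 prefixed libraries, and at 0.26 or less in the other 12 unprefixed libraries.

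Among glycolytic and hypoxia-regulated genes the call was GAPDH. GAPDH, a glycolytic enzyme, was at 1292 CPM in 20-ARSF, 1694 in 21-CTPS2, 1807 in 22-LAPTM4B and 1579 in 23-GOLGA8N, against 686.9 to 1644 (median 1001) in the unprefixed libraries. The ranges overlapped because of E7, which held the unprefixed maximum, and GFP, which lay above 20-ARSF. Its log2 fold was 0.63 (SE 0.137, edgeR adjusted p = 0.0377), and the call was lost without any of 11 libraries in turn. SLC2A1, the main glucose transporter of red cell precursors, was at 101 to 109 CPM in the prefixed libraries and 44.6 to 101 CPM in the others, and did not pass (edgeR adjusted p = 0.0639). GAPDH was the only call among 41 tested genes, beside 0.235% of all tested genes called higher. Of the 41, 35 had a fold above 0, beside 47.8% of all. At an unadjusted p under 0.05, 16 were higher and 2 were lower, beside 9.36% of all in either direction. The list median was 0.37, with library medians of 0.07 in 20-ARSF, 0.45 in 21-CTPS2, 0.58 in 22-LAPTM4B, 0.49 in 23-GOLGA8N and 0.52 in E7.

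**Figure D3:**
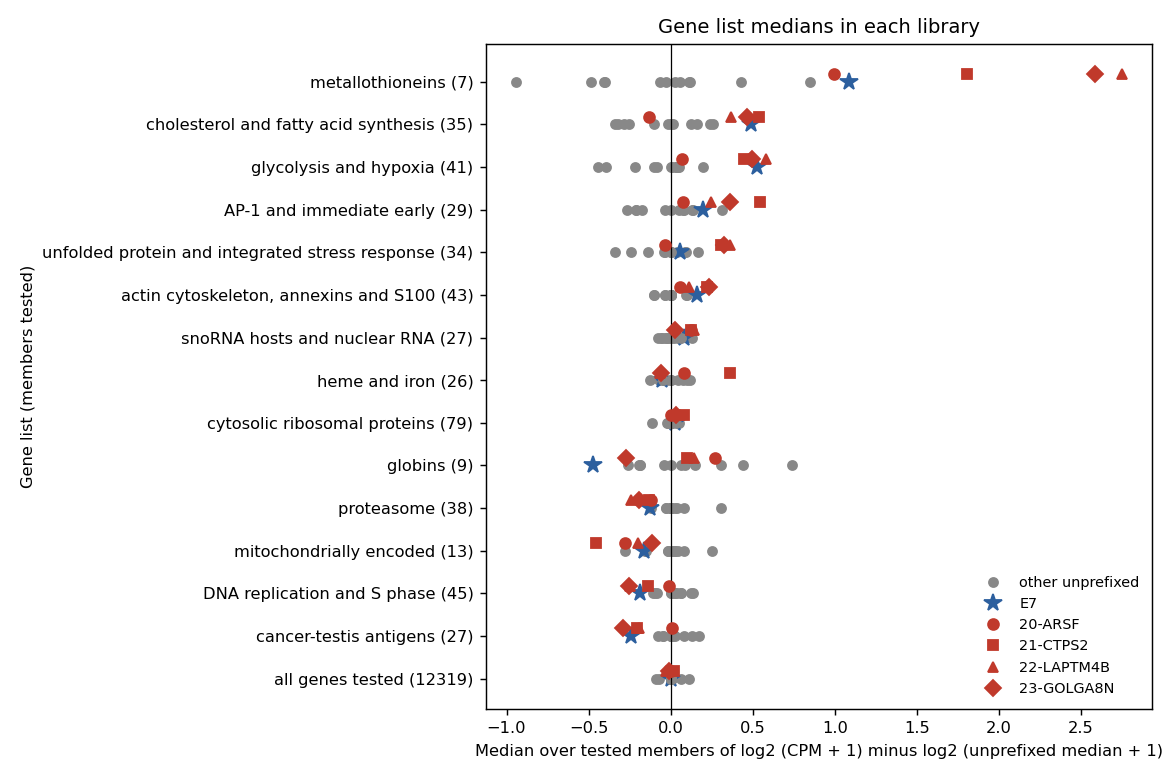
Median over the tested members of each gene list (number of members in brackets) of the log2 ratio to the unprefixed median, 1 point per library. The metallothionein list, which takes in MTF1 and SLC30A1, reaches 2.75 in 22-LAPTM4B and 2.58 in 23-GOLGA8N. The 20-ARSF point lies near 0 for the cholesterol and glycolysis lists, and the medians over all tested genes lie between -0.09 and 0.11.

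Of the iron genes, 2 were called, and SLC25A37 kept its call whichever library was left out. SLC25A37 (chr8:23528805-23575463), the mitochondrial importer of iron for heme synthesis, was at 307 CPM in 20-ARSF, 313 in 21-CTPS2, 269 in 22-LAPTM4B and 320.5 in 23-GOLGA8N. The unprefixed range was 118 to 234 CPM with a median of 165, so the classes did not overlap. The log2 fold was 0.78 (SE 0.131, edgeR adjusted p = 0.00316), and it stayed between 0.75 and 0.83 over the alternatives run. FTH1, the heavy chain of ferritin, was also above every unprefixed library, at 1955 to 2721 CPM against 1384 to 1857 (log2 fold 0.46, edgeR adjusted p = 0.0177), and its call was lost without 22-LAPTM4B or 21-CTPS2. These 2 were the calls among 26 tested heme and iron genes, beside 0.235% of all tested genes called higher. Of the 26, 16 had a fold above 0, beside 47.8% of all, with a list median of 0.09. NCOA4, which delivers ferritin for degradation, did not pass (log2 fold 0.53, edgeR adjusted p = 0.112).

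HBE1, embryonic epsilon globin, was at 978 CPM in 20-ARSF, 964 in 21-CTPS2, 714 in 22-LAPTM4B and 598 in 23-GOLGA8N. The unprefixed range was 279 to 579 CPM with a median of 447, and no value overlapped (log2 fold 0.83, SE 0.157, edgeR adjusted p = 0.0191). Here 20-ARSF and 21-CTPS2 were the highest, whereas 22-LAPTM4B and 23-GOLGA8N were for MT2A. The annotated span of HBE1 is chr11:5268345-5505652, and reads of genes that overlap it may not be separable. HBE1 was the only call among 9 tested globin genes, 4 of which had a fold above 0, with a list median of -0.16. HBG2, fetal gamma globin and the most abundant of them, had a log2 fold of -0.18 (edgeR adjusted p = 0.834), and HBZ, embryonic zeta globin, had -0.16 (adjusted p = 0.941). The HBE1 call was lost without 22-LAPTM4B, 21-CTPS2 or 20-ARSF (adjusted p 0.0654 to 0.13).

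Several cytoskeletal and membrane genes were called with smaller folds. ACTG1, cytoplasmic gamma actin, was at 1125 to 1724 CPM in the prefixed libraries and 785.5 to 1171 in the others (log2 fold 0.45, edgeR adjusted p = 0.0317). AHNAK, a large scaffold protein, was at 231 to 269 CPM against 102 to 239 (log2 fold 0.75, edgeR adjusted p = 0.0191). FLNA, which crosslinks actin, and LGALS1, a galectin, were called at log2 folds of 0.48 and 0.61 (edgeR adjusted p = 0.0493 for both). In ACTG1, AHNAK, FLNA and LGALS1 alike the unprefixed maximum was E7, which alone overlapped the prefixed values, except that GFP overlapped them too for FLNA. These were the 4 calls among 43 tested genes of the actin, annexin and S100 list, beside 0.235% of all tested genes called higher. Of the 43, 32 had a fold above 0, beside 47.8% of all, with a list median of 0.18. KRT19, a keratin, was at 303 to 351 CPM against 135 to 280 without overlap (log2 fold 0.58, edgeR adjusted p = 0.0382). FLOT2, a membrane scaffold of the endosome list, was at 228 to 267 CPM against 112 to 200 without overlap (log2 fold 0.66, edgeR adjusted p = 0.0317). TNNT1, slow skeletal troponin T, was at 480.5 to 548 CPM against 287 to 392.4 without overlap (log2 fold 0.57, edgeR adjusted p = 0.00897).

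KRT19 belongs to an epithelial marker list. The summed CPM of its 8 genes was 1668 to 2040 in the prefixed libraries and 871 to 1825 in the unprefixed ones. Of the 7 tested markers, KRT19 alone was called, KRT8 and KRT18 had unadjusted p-values of 0.00259 and 0.024 upward, and EPCAM, a defining surface protein, had 0.0406 downward. CDH1, the epithelial cadherin, reached at most 3.91 CPM. The part of other cells in these keratin values was not tested. In bulk RNA, more cells of a kind and more RNA per cell cannot be told apart.

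Of the 29 higher genes, 5 were noncoding RNAs. NEAT1, the scaffold RNA of paraspeckles, was at 236 to 336 CPM against 161 to 232 without overlap (log2 fold 0.59, edgeR adjusted p = 0.0191). SNHG5, a host of small nucleolar RNAs, was at 1257 to 1342 CPM in the 4 prefixed libraries, at 1435 in E7 and at 636 or more in all others, with an unprefixed median of 746 (log2 fold 0.71, edgeR adjusted p = 0.0382). GAS5, a host gene of the same kind whose transcript is stabilised when translation slows, was at 276 CPM in 20-ARSF, 381 in 21-CTPS2, 359 in 22-LAPTM4B and 373 in 23-GOLGA8N against 151 to 303 (log2 fold 0.64, edgeR adjusted p = 0.0191). These were the 3 calls among 27 tested snoRNA hosts and nuclear RNAs, of which 17 had a fold above 0. The other noncoding calls were MIR4458HG (log2 fold 0.69, adjusted p = 0.0191) and AC079466.1 (log2 fold 1.96, adjusted p = 0.0317), both without overlap.

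Cytosolic ribosomal protein transcripts took 24.9% to 25.6% of the reads in the prefixed libraries and 22.0% to 24.7% in the unprefixed ones, so the shares did not overlap. Only RPLP1, an acidic protein of the ribosomal stalk, was called among 79 tested members (log2 fold 0.37, edgeR adjusted p = 0.0493), and that call was lost without any of 15 libraries in turn. RPLP0 and RPLP2, its partners in the stalk, lay above every unprefixed library with log2 folds of 0.24 and 0.19 and did not pass (edgeR adjusted p = 0.276 and 0.37). The list median was 0.07, and 56 of the 79 had a fold above 0.

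Among stress genes, SLC3A2, the heavy chain of amino acid transporters, was at 190.2 CPM in 20-ARSF, 204 in 21-CTPS2, 252 in 22-LAPTM4B and 256 in 23-GOLGA8N, against 99.8 to 207 (median 133) in the others. The log2 fold was 0.67 (edgeR adjusted p = 0.0377), with E7 as the unprefixed maximum. It was the only call among 34 tested genes of the unfolded protein and integrated stress response, of which 24 had a fold above 0, and the list median was 0.23. CALR, an endoplasmic reticulum chaperone, was at 246 to 312 CPM against 311 to 506 and did not pass (log2 fold -0.49, edgeR adjusted p = 0.0956). SQSTM1, an autophagy receptor and target of NRF2, was called at 187 to 289 CPM against 106 to 193 (log2 fold 0.64, edgeR adjusted p = 0.0377). SQSTM1 and FTH1 were the 2 calls among 28 tested NRF2 targets, of which 17 had a fold above 0.

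The remaining higher genes share no list. RFK, riboflavin kinase, which makes the flavin cofactors, had the lowest p of all higher genes and stood at 91.4 CPM in 20-ARSF, 96.6 in 21-CTPS2, 106 in 22-LAPTM4B and 81.4 in 23-GOLGA8N against 28.1 to 71.8 (median 41.8). It did not overlap (log2 fold 1.09, SE 0.179, edgeR adjusted p = 0.00316), and lost its call only without 22-LAPTM4B among the single libraries left out (adjusted p = 0.0789). TRAPPC6A, a subunit of a vesicle tethering complex, stood at 39.9, 61.4, 70.6 and 44.1 CPM in the same order of libraries, against 11.3 to 32.9 (log2 fold 1.39, edgeR adjusted p = 0.00407). PPFIA4, a liprin scaffold, was at 6.85, 9.08, 21.7 and 31.7 CPM against 0.286 to 8.71 (log2 fold 2.61, edgeR adjusted p = 0.0335). AQP10, a glycerol-conducting aquaporin, and IKBKG, the regulatory subunit of the IκB kinase, were both called without overlap, at log2 folds of 1.10 and 0.78 (edgeR adjusted p = 0.0488 and 0.0377).

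Of the 6 genes lower in the prefixed libraries, 4 had no overlap. IFI30 (chr19:18173162-18178117), a lysosomal thiol reductase, was at 67.0 CPM in 20-ARSF, 74.8 in 21-CTPS2, 96.3 in 22-LAPTM4B and 85.1 in 23-GOLGA8N, and at 112 to 207 (median 168) in the others. No value overlapped, and the log2 fold was -0.99 (SE 0.158, edgeR adjusted p = 0.00316). NRARP, a feedback inhibitor of Notch signalling, was at 13.7, 10.2, 5.21 and 4.60 CPM in the same order of libraries against 15.2 to 37.4 (median 28.5). It too did not overlap (log2 fold -1.66, SE 0.318, edgeR adjusted p = 0.0154). NMU, the peptide neuromedin U, was at 337.5 to 399 CPM against 446 to 587 (log2 fold -0.50, edgeR adjusted p = 0.0177). RPL22L1, a paralog of a ribosomal protein, was at 72.6 to 100.1 CPM against 97.1 to 187 (log2 fold -0.72, edgeR adjusted p = 0.0317).

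CD68, a lysosomal membrane protein of macrophages, was at 4.72 to 9.29 CPM against 9.44 to 29.03 (log2 fold -1.50, edgeR adjusted p = 0.0493), and its call was lost without any of 15 libraries in turn. Of the 8 monocyte and macrophage markers listed, only CD68 and LYZ were tested, C1QA had no reads in any library, and CSF1R and CD14 reached at most 2.30 and 3.82 CPM. Summed, the 8 markers made 18.4 to 36.7 CPM in the prefixed libraries and 21.4 to 48.5 in the others. For the fibroblast list, LUM, PDGFRB, FAP and POSTN had no reads, and the sum was 20.7 to 38.1 CPM against 40.0 to 64.3, nearly all from COL1A2 (log2 fold -0.76, edgeR adjusted p = 0.105). No endothelial marker was tested, and KDR, TEK and CLDN5 had no reads. Of the 9 lymphoid markers 3 were tested and none was called. Their part in these results was not tested.

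MT-ATP6, a subunit of ATP synthase encoded by mitochondrial DNA, had a narrow range of 11480 to 11970 CPM in the prefixed libraries. The unprefixed libraries ran from 11650 in E7 to 20560, with a median of 16620 (log2 fold -0.47, SE 0.098, edgeR adjusted p = 0.0218). It was the only call among the 13 mitochondrial messages, of which 2 had a fold above 0 and 7 were lower at an unadjusted p under 0.05. MT-ND2, of respiratory complex I, was at 6565 to 8918 CPM against 9004 to 15560 without overlap and did not pass (edgeR adjusted p = 0.223). The list median was -0.21. The 76 nuclear genes of oxidative phosphorylation had 0 calls with edgeR, 17 folds above 0 and a median of -0.09.

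Other lists held no call but leaned downward against the 47.8% of all genes with a fold above 0. Among DNA replication genes, 10 of 45 had a fold above 0, with a median of -0.22, and 4 were lower and none higher at an unadjusted p under 0.05. PCNA, the sliding clamp of DNA polymerase, had a log2 fold of -0.44 (unadjusted p = 0.0278, edgeR adjusted p = 0.452). Among proteasome genes 8 of 38 were above 0 (median -0.14), and among cancer-testis antigens 8 of 27 (median -0.17). The 4 prefixed libraries did not share this equally: the median log2 ratio of the replication genes was -0.01 in 20-ARSF and -0.25 to -0.14 in the other 3, beside -0.19 in E7, the lowest unprefixed library. Cancer-testis antigens stood at 0.01 in 20-ARSF, -0.29 to -0.19 in the other 3 and -0.24 in E7. Proteasome genes stood at -0.24 to -0.12 in the 4 prefixed libraries and at -0.12 in E7. Mitosis genes did not lean with the replication genes: 23 of 42 were above 0, with a median of 0.04.

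The lists closest to the study's own question stayed near the background. With GOLGA8 in its title, the study concerns golgins and oligonucleotide uptake. Of 55 tested Golgi coat, golgin and retrieval genes 0 were called, 4 were higher and 1 lower at an unadjusted p under 0.05, and the median log2 fold was 0.08. FLOT2 was the only call among 53 tested endocytosis and endosome genes (median 0.07). Of 56 tested genes on the lysosome list 0 were called, with 4 higher and 2 lower at an unadjusted p under 0.05. IFI30 and CD68, whose proteins are lysosomal and which were called lower, were not on that list. CTSZ, a lysosomal protease, was below every unprefixed library at 85.1 to 122.5 CPM against 132 to 220.0 and did not pass (edgeR adjusted p = 0.0681). Of 39 proteins known to bind phosphorothioate oligonucleotides 0 were called, with 2 in each direction at an unadjusted p under 0.05. Among 16 tested genes of the interferon response list, which does not hold IFI30, 0 were called and 1 was lower at that p.

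The prefixed libraries were not equally shifted. In 15 of the 29 higher genes 20-ARSF was the lowest of the 4, and its median log2 ratio to the unprefixed median over the 29 was 0.69, beside 0.79 to 0.82 in the other 3. The unprefixed library E7 lay toward the prefixed ones, with a median of 0.42 over the same genes. In 17 of the 29 higher genes E7 held the unprefixed maximum, and in 5 of the 6 lower genes it held the minimum. When E7 was left out, 102 of 12040 genes were called (0.847%), 81 (0.673%) higher and 21 (0.174%) lower, and they included all 35 genes called with it. Of those 81 genes, 79 were higher in E7 than in the median of the other 12 unprefixed libraries, against 49.3% of all tested genes. Of the 21 lower genes, all 21 were lower in E7, against 50.4% of all tested genes. The genes of both sets were chosen for the gap between the prefixed libraries and those 12. This by itself tends to place a library left out on the prefixed side of the median of the 12, so the shares over all genes are no exact baseline. The labels give no number in front of E7, and it was kept in the unprefixed class as its label says. Without it, 8 glycolysis and hypoxia genes, 4 cholesterol genes and 4 immediate early genes were called higher, none of these lists had a gene called lower, and the medians of the first 2 lists were both 0.47. In that fit H19, an imprinted noncoding RNA, had 193 CPM on average in the prefixed libraries, 317 in E7 and 93.2 in the rest (edgeR adjusted p = 4.83e-05). NDRG1, a hypoxia-induced gene, had 96.6, 121 and 27.0 CPM in that order (log2 fold 1.89, edgeR adjusted p = 0.0213), both genes having been chosen after their values were seen.

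The comparison within the same named gene set 22-LAPTM4B against LAPTM4B 1 and 2, and 23-GOLGA8N against GOLGA8N 1 and 2. It shares these libraries with the comparison of all 17, so the 2 are given side by side and not as independent evidence. In the fit to all libraries, 4 of 12319 genes (0.0325%) were called for the mean of the 2 differences, 2 (0.0162%) in each direction, with 989 (8.03%) at an unadjusted p under 0.05. TUBB2B, a beta tubulin, was at 149 CPM in 22-LAPTM4B against 35.6 and 32.4, and at 123.3 in 23-GOLGA8N against 31.1 and 36.9 (log2 fold 2.02, SE 0.369, edgeR adjusted p = 0.0306). In 20-ARSF and 21-CTPS2 it was at 39.9 and 46.1 CPM, close to the unprefixed median of 35.6, and it was not called over all 4 (adjusted p = 0.21). GAPDH had a within-gene log2 fold of 1.01 (SE 0.19, edgeR adjusted p = 0.0306) beside 0.63 over all libraries. NRARP was lower, at 5.21 CPM against 28.5 and 28.6, and at 4.60 against 31.0 and 35.9 (log2 fold -2.62, SE 0.493, edgeR adjusted p = 0.0306). POP5, a subunit of the ribonucleases P and MRP, was at 5.79 CPM against 24.2 and 41.2, and at 5.98 against 44.6 and 26.1 (log2 fold -2.49, SE 0.469, edgeR adjusted p = 0.0306). All 4 calls were lost without any of Neg, RFP, 22-LAPTM4B, 23-GOLGA8N, LAPTM4B 2, GOLGA8N 1 or GOLGA8N 2 in turn. Without LAPTM4B 1 only 1 of the 4 was still called, and with unmatched transcripts kept 0 of the 4 were.

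A fit to those 6 libraries alone, with the named gene as a block, called 73 of 11829 genes (0.617%), 55 (0.465%) higher and 18 (0.152%) lower. The genes described from it were chosen after their values were seen. Cholesterol synthesis had 7 calls among 34 tested genes, all higher. HMGCS1 was at 408 CPM in 22-LAPTM4B against 161 and 149, and at 391.8 in 23-GOLGA8N against 137 and 185 (log2 fold 1.37, SE 0.162, edgeR adjusted p = 0.000373). FDPS, FDFT1, SCD, FADS1, ACSS2 and MSMO1 were the others. Glycolysis and hypoxia had 6 calls among 41, all higher, namely GAPDH, LDHA, PKM, SLC2A3, BNIP3 and BNIP3L. LDHA, lactate dehydrogenase, was at 1130 CPM against 537 and 660, and at 1060 against 474 and 787 (edgeR adjusted p = 0.0206).

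The stress response list had 5 higher calls among 34 genes in the same fit, which were GDF15, DDIT4, DDIT3, ASNS and SLC3A2. DDIT4, an inhibitor of mTORC1, was at 240 CPM against 76.2 and 46.4, and at 241 against 72.2 and 105 (edgeR adjusted p = 0.00106). The metallothionein list, which also holds MTF1 and SLC30A1, had 4 higher calls among 8 tested genes, namely MT2A, MT1X, MT1G and MT1H. MT1H had no reads in any of the 4 unprefixed libraries of this fit, 23.5 CPM in 22-LAPTM4B and 5.37 in 23-GOLGA8N, and in the fit to all libraries it was not tested. Of the 22 mitochondrial transfer RNA genes 7 were called higher, beside 0.465% of all tested genes. Whether these oligo-dT-primed reads came from mature transfer RNAs was not tested. MT-TV, the transfer RNA for valine, had the lowest p, at 4030 CPM against 1710 and 1170, and at 3900 against 1250 and 1300 (log2 fold 1.57, SE 0.135, edgeR adjusted p = 2.61e-05).

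**Figure D4:**
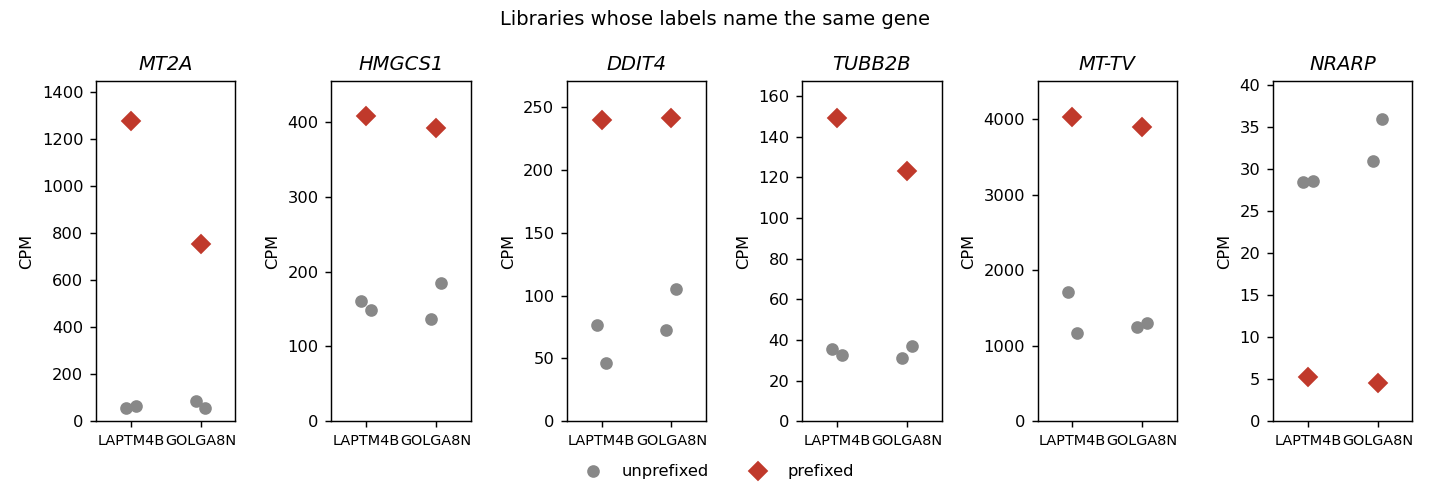
CPM of 6 genes in the libraries whose labels name LAPTM4B or GOLGA8N, on linear axes from 0, with 2 unprefixed libraries (grey) and 1 prefixed library (red) for each name. For MT2A, HMGCS1, DDIT4, TUBB2B and MT-TV both prefixed libraries lie above all 4 unprefixed ones, and for NRARP both lie below.

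The other 11 libraries share none of those 6 and allow the same genes to be looked up elsewhere, a comparison added after the data were seen. It set 20-ARSF and 21-CTPS2 against the 9 unprefixed libraries that name neither LAPTM4B nor GOLGA8N. By itself it called 1 of 13413 genes (0.00746%), AP1M2, described with the single libraries. Of the 55 genes higher in the 6 libraries, 54 were tested in the 11, and 46 had the same direction, whereas 45.6% of all tested genes had a fold above 0. Of the 54, 11 reached an unadjusted p under 0.05 in that direction, beside 1.72% of all tested genes. Of the 18 lower genes 14 had the same direction, beside 54.4% of all, and 4 reached that p, beside 3.38%. None reached it in the opposite direction, and 0 of the 72 passed adjustment in the 11 libraries with edgeR. The fold in the 11 pools 20-ARSF and 21-CTPS2, which were not alike in every gene. HMGCS1 was at 197 CPM in 20-ARSF and 399 in 21-CTPS2, and DDIT4 at 94.4 and 259, whereas JUN was at 175 and 212. For genes like the first 2, the shared direction rests mainly on 21-CTPS2.

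These genes were chosen for passing the test in the 6 libraries, which by itself raises the size of their folds there, so the sizes in the 2 sets of libraries are given without a comparison. For the higher genes the median log2 fold was 1.27 in the 6 libraries and 0.44 in the 11, and for the lower genes -1.78 and -0.27. MT2A had a log2 fold of 3.97 in the 6 and 1.67 in the 11 (unadjusted p = 0.0368 there), and JUN had 1.59 and 1.31 (unadjusted p = 0.00467). SLC25A37 had 0.73 and 0.82 (unadjusted p = 0.000177), and TRAPPC6A had 1.72 and 1.18 (unadjusted p = 0.00179). TUBB2B had 2.02 in the 6 and -0.05 in the 11, and FDPS, of isoprenoid synthesis, had 0.98 and -0.06. The mitochondrial transfer RNAs had a median of 0.45 in the 6 and -0.01 in the 11.

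**Figure D5:**
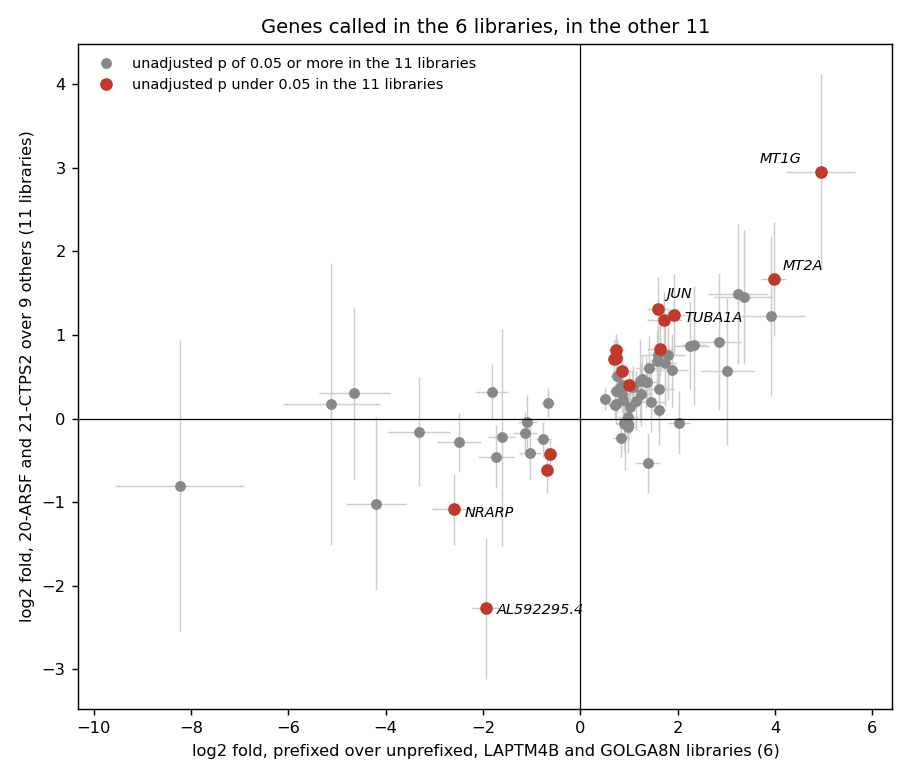
The 72 genes called in the 6 LAPTM4B and GOLGA8N libraries that were also tested in the other 11, with the log2 fold in the 6 on the x axis and in the 11 on the y axis, bars showing 1 SE. Of the genes right of 0, 46 of 54 lie above the horizontal line, and red marks the 15 genes with an unadjusted p under 0.05 in the 11 libraries.

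Whether the prefix difference itself differed between LAPTM4B and GOLGA8N was tested as an interaction. Of 12319 genes 0 (0.0%) were called with edgeR, and 421 (3.42%) had an unadjusted p under 0.05. DESeq2 and limma-voom also called 0. The lowest p belonged to EEF2K, the kinase that inhibits elongation factor 2, which had no reads in 22-LAPTM4B and 20.4 and 8.79 CPM in LAPTM4B 1 and 2, whereas it had 22.2 CPM in 23-GOLGA8N and 8.23 and 22.1 in GOLGA8N 1 and 2 (edgeR adjusted p = 0.17). With 1 prefixed library per name, a fold change against its 0 reads is no bound and is not given.

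The genes named on the labels did not mark the prefixed libraries. LAPTM4B, which sits in lysosome membranes, stood at 166 CPM in 22-LAPTM4B, the library that names it, and at 234, 306.5 and 156 in 20-ARSF, 21-CTPS2 and 23-GOLGA8N. Its unprefixed range was 160.2 to 281 CPM, so its own prefixed library sat near the low end (log2 fold over the class -0.02, edgeR adjusted p = 0.984). GOLGA8N, a golgin with near-identical copies on chromosome 15, reached at most 0.318 CPM, in 23-GOLGA8N, which is under the level of 3 reads in any library. CTPS2, which makes CTP, reached 15.98 CPM in 21-CTPS2 and 8.10 to 11.04 in the other 3 prefixed libraries, but the unprefixed libraries reached 18.3. ARSF, a sulfatase, had no reads in any library. TTR, TRPC5OS and COL6A6 had no reads in the 4 prefixed libraries, and UBE2V1 had a log2 fold of -0.09.

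Each prefixed library also had genes of its own, taken as the 3 largest ratios to the median of the other 16 libraries among genes at 10 CPM or more. These have 1 library each, so no test applies. In 20-ARSF it was AP1M2, a clathrin adaptor subunit, at 66.7 CPM, with 15.98 in 21-CTPS2 as the next highest value and 2.65 as the unprefixed maximum. In 21-CTPS2 the pseudogene AC116533.1 stood at 858 CPM, but GFP held 1100 and 9 other libraries none. In 22-LAPTM4B they included MT1G at 95.3 CPM and MT1H at 23.5, for both of which 23-GOLGA8N was the next highest. In 23-GOLGA8N the potassium channel subunit KCNAB1 stood at 50.6 CPM and at no more than 4.58 in any other library, while the homeobox gene RHOXF2, at 138 CPM, reached 159 in Neg. SKA1, a kinetochore protein, was among the 3 for both 22-LAPTM4B (36.0 CPM) and 23-GOLGA8N (37.6 CPM) but was higher still in TRPC5OS (41.7 CPM). Except for AP1M2, KCNAB1 and the metallothioneins, the ones named here had an unprefixed library above the prefixed one. Whether the quantifier divided reads of AC116533.1 and RHOXF2 with similar sequences was not tested.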

How the data were processed

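The values the authors deposited are estimated counts (expected counts) per transcript, laid out as Salmon writes them. Per the submitters' processing notes the tools were Salmon 0.7.2, STAR (also as 0.7.2, which is doubtful), featureCounts and UMI-tools, with the builds GRCh38 and hg38. Neither the strand setting nor the collapse of identifiers before counting is given in the sources used here. Genes that overlap, also on opposite strands, are therefore uncertain. Here counts were summed per gene with GENCODE 29 by transcript identifier, leaving 3.32% to 3.6% of reads in unmatched transcripts out, and rounded. CPM are these counts scaled to the same total of reads in genes.

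The test was edgeR 4.0.16 under R 4.3.3 (filterByExpr, TMM, robust quasi-likelihood, threshold 0.05), over all 17 libraries. The standard error is the log2 fold divided by the square root of F. On simulated counts for prefixed against unprefixed labels (11755 genes), 48 of 49 changes of 8-fold, 42 of 50 of 4-fold, 23 of 50 of 2-fold and 7 of 50 of 1.5-fold were recovered, with 6 false calls. For the comparison within the same named gene (11746 genes), 43, 30, 6 and 3 of 50 were recovered, with 2 false calls. The simulation drew each gene independently and gave all prefixed libraries the same change. Changes were planted only in genes with a mean of at least 5 CPM, so recovery in weaker genes was not measured. Shifts shared by many genes within a library were left out, so these counts need not hold for the real libraries. Gene lists and their members were chosen with earlier results of these data known. Named genes were up to 15 called per direction by p, up to 10 called within a gene or else the 5 lowest p, 2 per list, 3 per prefixed library and the 9 plasmid genes, and other called genes were added after their values were seen. Alternatives were DESeq2 1.42.0, limma-voom with limma 3.58.1, other scaling, filters and library sets, and each library left out.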

Additional observations from a re-analysis of the deposited data

Results flagged for a closer look

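Genes in which 1 of the 4 prefixed libraries stood far from the other 3 were listed with Dixon's criterion, over 112 named genes and 10 library measures. Chance alone marks about 1 in 20 groups of values that were not selected, and 11 were marked. That rate is no baseline for the 11, because some of the named genes were chosen for standing apart in 1 prefixed library. In 5 genes 1 library lay below the rest. Of these, HMGCS1 was at 197 CPM in 20-ARSF with 391.8 to 408 in the others, MT-ND2 was at 6560 CPM in 21-CTPS2 with 8690 to 8920, and CALR was at 246 CPM in 23-GOLGA8N with 303 to 312. Of the same 5, SRSF7, a splicing factor, was at 133 CPM in 23-GOLGA8N with 166 to 171 in the others, and the readthrough gene DNAJC25-GNG10 was at 0 CPM in 23-GOLGA8N with 35.3 to 36.7. EPB41, a red cell membrane protein, was at 192 CPM in 22-LAPTM4B with 178 in the other 3. Among genes chosen for a high value in a single library, AC116533.1 was at 858 CPM in 21-CTPS2, RHOXF2 at 138 and KCNAB1 at 50.6 CPM in 23-GOLGA8N, and RPL13AP5 at 41.9 CPM in 20-ARSF, with the other 3 prefixed libraries at or near 0. ADORA2A was at 1.74 CPM in 22-LAPTM4B with at most 0.244 in the others.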

How the results depend on the processing

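Called counts moved with the method. For prefixed against unprefixed labels, where 35 genes were called, DESeq2 gave 115 (64 higher, 51 lower), limma-voom 55 (51 higher, 4 lower), no filter on low counts 557 (499 higher, 58 lower) and keeping unmatched transcripts 23. Only the unprefixed libraries that name a human gene gave 137 (89 higher, 48 lower), dropping the unprefixed LAPTM4B and GOLGA8N libraries gave 3, and 20-ARSF and 21-CTPS2 against 9 others gave 1. Leaving out each library in turn gave 2 (without 22-LAPTM4B) to 102 (without E7), with 11 without 21-CTPS2. The split of higher against lower calls was 82.9% higher as reported, 55.7% with DESeq2 and 92.7% with limma-voom. Within the same named gene, where 4 genes were called, DESeq2 gave 55, limma-voom 20, no filter 67, a mean of at least 10 CPM 7, keeping unmatched transcripts 1 and the 6 libraries with the named gene as a block 73. Leaving out each library gave 0 (without Neg, RFP, 22-LAPTM4B, 23-GOLGA8N, LAPTM4B 2, GOLGA8N 1 or GOLGA8N 2) to 19 (without E7), with 8 without UBE2V1, and without 22-LAPTM4B or 23-GOLGA8N the comparison rests on 1 gene name. For the difference between LAPTM4B and GOLGA8N, where 0 were called with edgeR, no filter gave 6 and keeping unmatched transcripts 2, leaving out a library gave 0 to 3, and without 22-LAPTM4B or 23-GOLGA8N it could not be fitted. The cause was not tested. Among 110 named results, 2483 of 2905 alternative values kept their side of the threshold, 346 no longer passed and 76 newly passed. Of the called values, 0 changed sign. The 110 include genes not called as reported, which had no call to lose and whose folds could change sign. For LAPTM4B the log2 fold ran from -0.213 to 0.297 over the alternatives. For pairing by replicate number: No paired analysis was possible because the 2 classes share no such number in the labels. The fit with the named gene as a block matched 6 libraries by name instead. Depth limits the weakest genes: at 3 reads a level is 5.45 CPM in GFP.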

Other observations

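Reads assigned to mitochondrial transfer RNA genes, a set chosen after its values were seen, made 1.81% to 2.58% in the prefixed libraries. They made 1.27% to 2.43% in the unprefixed ones. Over all 17 libraries 18 of the 22 had a fold above 0, beside 47.8% of all genes, with a median log2 fold of 0.26 and 0 calls with edgeR. Mitochondrial messages went the other way in the same libraries, with a median log2 fold of -0.21. Reads of the whole mitochondrial genome made 13.4% to 15.8% in the prefixed libraries and 13.6% to 17.5% in the others.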
